A study of Mus musculus with 8 samples.

Results

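NADPH oxidase subunits were followed in mouse kidney RNA: Cyba, Nox4, Cybb, Ncf1, Ncf4, Rac1 and Rac2, taken from the deposited table by their Ensembl identifiers. All 7 were found among 30146 genes, and all 7 were among the 11796 genes tested, which had a mean of at least 1 TPM (a relative transcript abundance, normalised for length and scaled to a nominal total of 1000000 per library). The 8 C57/BL6 mice overexpressed the human type 1 angiotensin receptor from a transgene in its Haplotype-II form (Hap-II) and received a western diet. They formed an adult group of 4 and an aged group of 4 animals, with 1 kidney library each. The sources used here do not give the ages, the promoter that drives the transgene or the number of founder lines. No group was without the transgene or on another diet, so neither can be told apart from what all mice share.

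NADPH oxidases move electrons from NADPH across a membrane to oxygen and so make superoxide or hydrogen peroxide. The catalytic chain is a NOX protein, which most often needs the small membrane subunit p22phox, the product of Cyba. NOX4, first described as a renal oxidase and abundant in kidney tubules, is active when bound to p22phox alone and makes mainly hydrogen peroxide. NOX2, the product of Cybb, is the oxidase of phagocytes, and it stays silent until cytosolic proteins, among them p47phox (Ncf1) and p40phox (Ncf4), and a GTP-loaded RAC protein join it. Angiotensin II is a classical stimulus of these enzymes in vessels and kidney.

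The promoters of the subunits the results turn on are shown as the 250 bases before the RefSeq transcription start (build GRCm38.p6, 5′ to 3′), since Cyba and Nox4 differed in which libraries were high and Cybb and Ncf1 belong to the leukocyte oxidase. Of the 7 genes, 4 were matched in the promoter table by symbol. Rac1, Rac2 and Ncf4 were not. Capitals mark matches to GGGCGG (the Sp1 box), TGANTCA (AP-1), GAGGAAG (PU.1), TGACNNNGC (NRF2) or the full androgen receptor element, searched on both strands.
Cyba (chr8:122432941-122433190, minus strand): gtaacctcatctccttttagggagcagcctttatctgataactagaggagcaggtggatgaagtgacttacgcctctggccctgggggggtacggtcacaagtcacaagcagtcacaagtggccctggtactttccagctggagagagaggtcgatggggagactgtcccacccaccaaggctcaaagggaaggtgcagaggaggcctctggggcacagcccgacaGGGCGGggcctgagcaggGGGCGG
Nox4 (chr7:87246399-87246648, plus strand): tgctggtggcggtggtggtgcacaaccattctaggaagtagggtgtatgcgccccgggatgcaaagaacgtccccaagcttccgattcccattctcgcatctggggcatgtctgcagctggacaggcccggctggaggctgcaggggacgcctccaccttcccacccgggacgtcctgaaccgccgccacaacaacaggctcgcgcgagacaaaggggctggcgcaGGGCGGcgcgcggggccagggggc
Cybb (chrX:9469325-9469574, minus strand): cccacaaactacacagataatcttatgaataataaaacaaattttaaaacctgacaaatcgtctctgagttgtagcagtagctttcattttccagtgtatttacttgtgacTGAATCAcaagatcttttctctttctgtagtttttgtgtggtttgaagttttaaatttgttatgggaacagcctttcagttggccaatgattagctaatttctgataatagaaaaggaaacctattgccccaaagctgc
Ncf1 (chr5:134229626-134229875, minus strand): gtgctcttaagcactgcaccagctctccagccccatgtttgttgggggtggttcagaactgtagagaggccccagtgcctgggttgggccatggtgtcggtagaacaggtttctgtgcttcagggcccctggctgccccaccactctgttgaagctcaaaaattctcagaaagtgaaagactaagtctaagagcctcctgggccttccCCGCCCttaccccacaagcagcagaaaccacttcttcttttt

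The Sp1 box stood in the Cyba promoter at −24 and −6 from the start, in the Nox4 promoter at −24 and, on the opposite strand, in the Ncf1 promoter at −42. It occurred in 32.7% of 32851 promoter windows of the same length. The Cybb window held an AP-1 match at −139, a motif found in 6.75% of windows. The letters searched for PU.1, NRF2 and the androgen receptor, present in 10.6%, 10.2% and 0.00913% of windows, did not occur in these 4. No match overlapped another. These matches describe letters and not occupied sites. A search for fixed letters misses sites that differ from them, so it cannot show that a promoter lacks a site.

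Cyba lies on chromosome 8 at 122424776 to 122432930 (GRCm38, GENCODE M21, minus strand), and Nox4 on chromosome 7 at 87246096 to 87398710 (plus strand). The other members are Cybb on chromosome X at 9435252 to 9487771, Ncf1 on chromosome 5 at 134220053 to 134229625, Rac1 on chromosome 5 at 143503634 to 143528036, Ncf4 on chromosome 15 at 78244801 to 78262580 and Rac2 on chromosome 15 at 78559167 to 78572783. All are annotated as protein-coding. The promoter windows of Cybb and Nox4 lie inside these gene bounds, so GENCODE puts the outermost start of both genes farther upstream than the RefSeq start used. Exons of Rac1 and of Daglb, on the opposite strand, share 2309 of the 4496 exonic bases of Rac1, and Ncf1 shares 408 of 3663 with Gtf2ird2. The libraries were stranded, but no source used here says whether the quantification used the strand, so the values of Rac1 and Ncf1 are less certain. These are 51.4% and 11.1% of the exonic bases, and Daglb averaged 1.77 TPM.

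The columns totalled 924798 to 950974 TPM. The number of reads behind a library cannot be read from TPM and is unknown here. Mitochondrially encoded transcripts took 21.2% to 27.8% of the column total in adult and 28.7% to 49.3% in aged libraries. The summed Y-linked transcripts Ddx3y, Kdm5d, Eif2s3y and Uty lay between 0.485 and 2.30 TPM in 4 libraries, replicates 1 and 2 at each age. They lay between 34.7 and 50.6 TPM in the other 4, replicates 3 and 4 at each age, a split that the labels do not name. Proximal tubule markers summed to between 2433 and 9789 TPM and the thick ascending limb marker Umod was between 159 and 1477 TPM, so kidney RNA was present in every library.

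The subunits fell into an abundant and a sparse set. Over the 8 libraries Cyba averaged 569 TPM, Nox4 135 TPM and Rac1 114 TPM, while Cybb averaged 3.43 TPM, Ncf4 2.14 TPM, Rac2 1.36 TPM and Ncf1 1.25 TPM. Cyba, at 315 TPM or more, was above every other subunit in every library. Nox4 and Rac1 overlapped each other, between 39.2 and 265 TPM and between 81.1 and 155 TPM, and both lay far above the highest value of the sparse set, 6.26 TPM. The sparse subunits overlapped one another. Cybb was 0.302% to 0.962% of Cyba and 1.28% to 5.41% of Nox4 within a library, and Rac2 was 0.729% to 2.43% of Rac1.

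**Figure D1:**
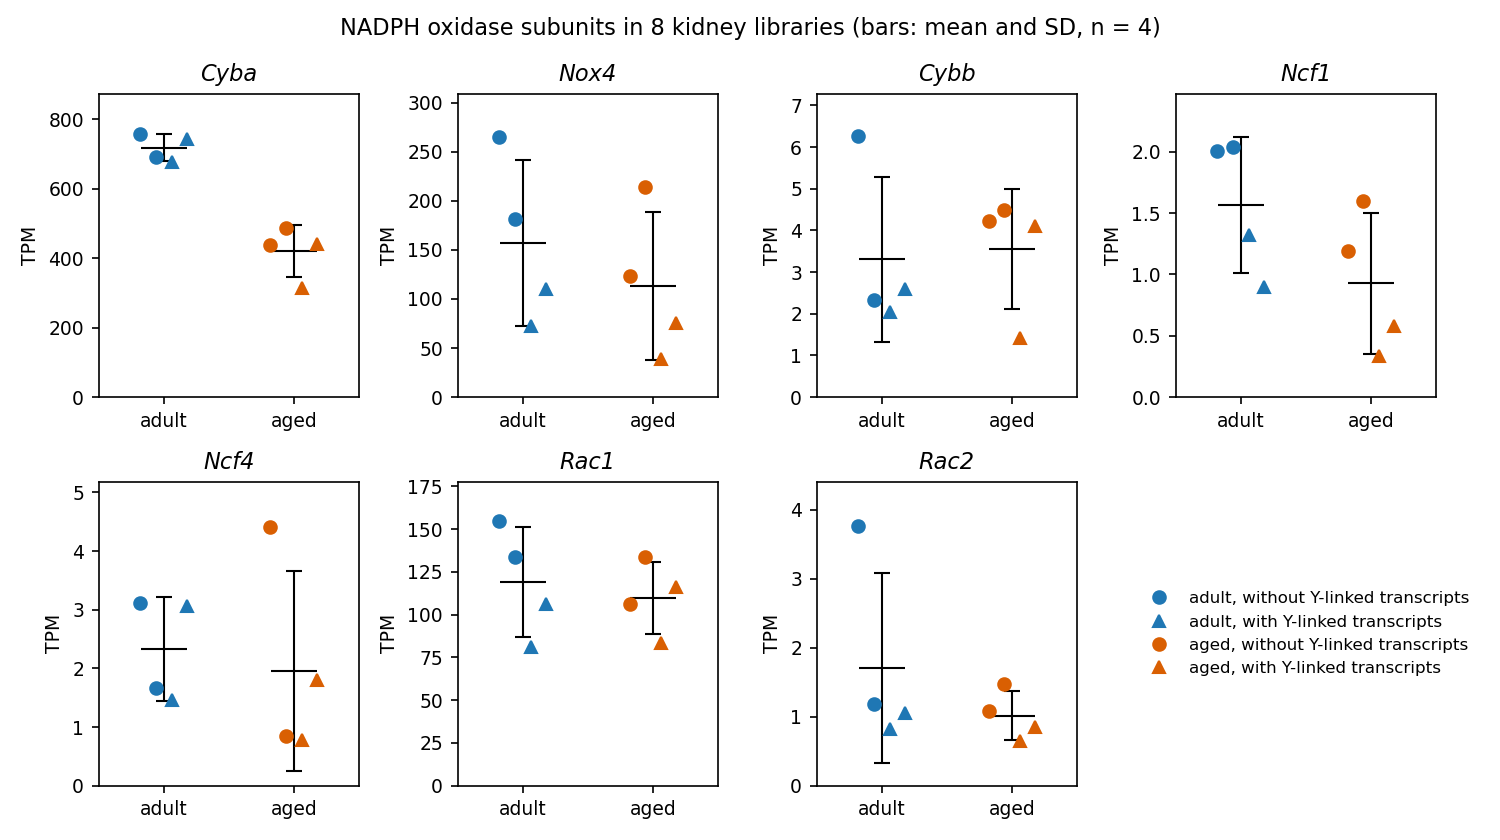
TPM of each subunit (vertical axes, from 0) in the 4 adult and 4 aged libraries. Points are libraries, circles those without and triangles those with Y-linked transcripts, and bars give the mean and SD (n = 4). Cyba is at 677 to 758 TPM in adult and 315 to 488 TPM in aged libraries, while the other 6 subunits overlap between the ages.

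Cyba, the p22phox chain that NOX enzymes need to be stable at the membrane, was the only subunit whose adult and aged libraries did not overlap. Adult replicates 1 to 4 had 758, 692, 677 and 743 TPM. Aged replicates 1 to 4 had 439, 488, 315 and 442 TPM. Every aged library was thus below every adult one, and aged replicate 3 was the lowest. The adult mean was 718 ± 39.2 TPM and the aged mean 421 ± 74.5 TPM (SD, n = 4 each), a ratio of 0.586.

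The log2 fold change of Cyba, on the log2(TPM + 1) scale, was −0.79 (SE 0.21, limma unadjusted p = 0.00323, adjusted p = 1.00 over all genes), so it did not pass the test. It had the 33rd smallest unadjusted p of 11796 genes. No gene passed at an adjusted p under 0.05 (0%), an unadjusted p under 0.05 was reached by 400 genes (3.39%), and the groups did not overlap for 2.46% of genes, against 1 of the 7 subunits. The median of all genes was −0.11, which became 0.01 with quantile normalization.

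The Cyba groups also did not overlap under any of the 3 other scalings of the libraries. The share of all genes without overlap was computed for TPM as deposited only, so how unusual this is there is not known. With size factors the adult libraries lay between 511 and 928 and the aged ones between 372 and 459. With mitochondrially encoded genes removed and the rest rescaled, they lay between 950 and 1096 and between 653 and 780, and the log2 fold change was −0.50 (SE 0.16) against a median of 0.14 for all genes. With quantile normalization the gap was narrowest, between 527 as the lowest adult and 525 as the highest aged value, with a log2 fold change of −0.46 (SE 0.16). A ratio of genes within a library is the same under size factors or with mitochondrial genes removed, though not under quantile normalization. As deposited, Cyba was 4.90, 5.18, 8.35 and 7.01 times Rac1 in adult replicates 1 to 4, and 4.14, 3.65, 3.77 and 3.82 times in aged replicates 1 to 4. All aged ratios were below all adult ones, and they were closer to each other (SD 0.210) than the adult ratios were (SD 1.62). Adult replicates 3 and 4, those with Y-linked transcripts, had the higher adult ratios, and the Rac1 values are less certain, as said above. Set against Nox4, the ages overlapped: Nox4 was 10.8% to 34.9% of Cyba in adult and 12.5% to 43.9% in aged libraries.

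Cyba gave a difference of the same direction in the libraries with and without Y-linked transcripts. Without them the means of 2 libraries each were 725 TPM (adult) and 464 TPM (aged), and with them 710 TPM and 378 TPM. The interaction of age with this split was −0.28 (SE 0.37, limma adjusted p = 1.00), in a design of 2 libraries per cell. With the split as a covariate the log2 fold change kept its size and the SE was 0.17 (adjusted p = 0.375). Proximal tubule markers summed to between 3744 and 9789 TPM in adult and between 2433 and 7692 TPM in aged libraries, and the pan-leukocyte markers to between 35.0 and 95.4 TPM and between 23.4 and 66.3 TPM. Both ranges overlapped between the ages. Of the proximal tubule markers, 10 of 11 had a negative log2 fold change for age (median −0.32), and 6 of 11 with quantile normalization or mitochondrial genes removed. All 7 endothelial (median 0.22) and all 5 podocyte markers (median 0.25) were positive, also under the other 3 scalings. No marker of these 3 lists passed the test for age (limma), and their part in the Cyba difference was not tested. In bulk tissue, fewer cells of a type and less RNA per cell cannot be told apart. The mitochondrial share was higher in every aged library than in every adult one, so it cannot be told apart from age here. With those genes removed, the log2 fold change of Cyba was −0.50 (limma adjusted p = 0.972), against −0.79 as deposited. The part of the mitochondrial share in the Cyba difference was not tested.

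The 5 genes whose log2(TPM + 1) was most like that of Cyba over the 8 libraries, among 7389 genes with a mean of at least 5 TPM, were Higd2a (a respiratory chain assembly factor, Pearson r = 0.985), Rpp21 (a ribonuclease P subunit, 0.982), Sod1 (cytosolic superoxide dismutase, 0.975), Fbxl4 (a mitochondrial F-box protein, 0.964) and Immp2l (a mitochondrial inner membrane peptidase, 0.963). All points come from the same 8 libraries and share their scaling, and the r values describe them only. Sod1 had 1341, 1186, 1143 and 1215 TPM in adult replicates 1 to 4 and 870, 990, 725 and 985 TPM in aged replicates 1 to 4. These groups did not overlap, and aged replicate 3 was the lowest. Both traits follow largely from choosing Sod1 by its likeness to Cyba and add no separate evidence. None of the 5 passed the test for age.

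Nox4, the catalytic subunit abundant in kidney tubules, was lower in the libraries with Y-linked transcripts, while its age groups overlapped. The adult libraries had 265 and 181 TPM without Y-linked transcripts (replicates 1 and 2) and 72.8 and 110 TPM with them (replicates 3 and 4). The aged libraries had 123 and 214 TPM without (replicates 1 and 2) and 39.2 and 75.8 TPM with them (replicates 3 and 4). Every library without Y-linked transcripts was above every library with them, at both ages. The means were 196 ± 59.4 TPM without and 74.6 ± 29.1 TPM with Y-linked transcripts (SD, n = 4 each), a ratio of 2.63.

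With age in the model, the log2 fold change of Nox4 was −1.42 with against without Y-linked transcripts (SE 0.28, limma adjusted p = 0.0165). This split moved much of the transcriptome: 12.4% of all genes passed (133 higher and 1331 lower with Y-linked transcripts), the groups did not overlap for 22.6%, and the median of all genes was −0.46. Among the subunits 1 of 7 passed and 2 of 7 did not overlap, shares near those of all genes. Other scalings changed the split of calls over all genes to 349 higher and 288 lower with size factors, 316 and 320 with quantile normalization, and 152 and 566 with mitochondrial genes removed. From 1464, the calls went to between 400 and 918 when any single library other than aged replicates 1 and 4 was left out. Nox4 had the 412th smallest p. It stayed past the threshold when the median of all genes was brought near 0 by size factors (−0.85, SE 0.18, adjusted p = 0.0345) or by quantile normalization (−1.06, SE 0.20, adjusted p = 0.0210). The call was lost with no filter (adjusted p = 0.0510), and on leaving out adult replicate 3 (0.0561), aged replicate 2 (0.0559) or aged replicate 3 (0.0547), where the log2 fold change was between −1.42 and −1.20.

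For age, the adult mean of Nox4 was 157 ± 84.6 TPM and the aged mean 113 ± 75.6 TPM (SD, n = 4 each). The log2 fold change was −0.57 (SE 0.51, limma adjusted p = 1.00), and leaving out 1 library moved it to between −0.96 (aged replicate 2 out) and −0.15 (aged replicate 3 out), with −0.26 when adult replicate 1 and −0.88 when adult replicate 3 was out. The age groups overlapped. Within the split the means were 223 and 169 TPM in adult and aged libraries without Y-linked transcripts, and 91.6 and 57.5 TPM in those with them. The interaction was −0.28 (SE 0.60, adjusted p = 1.00).

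**Figure D2:**
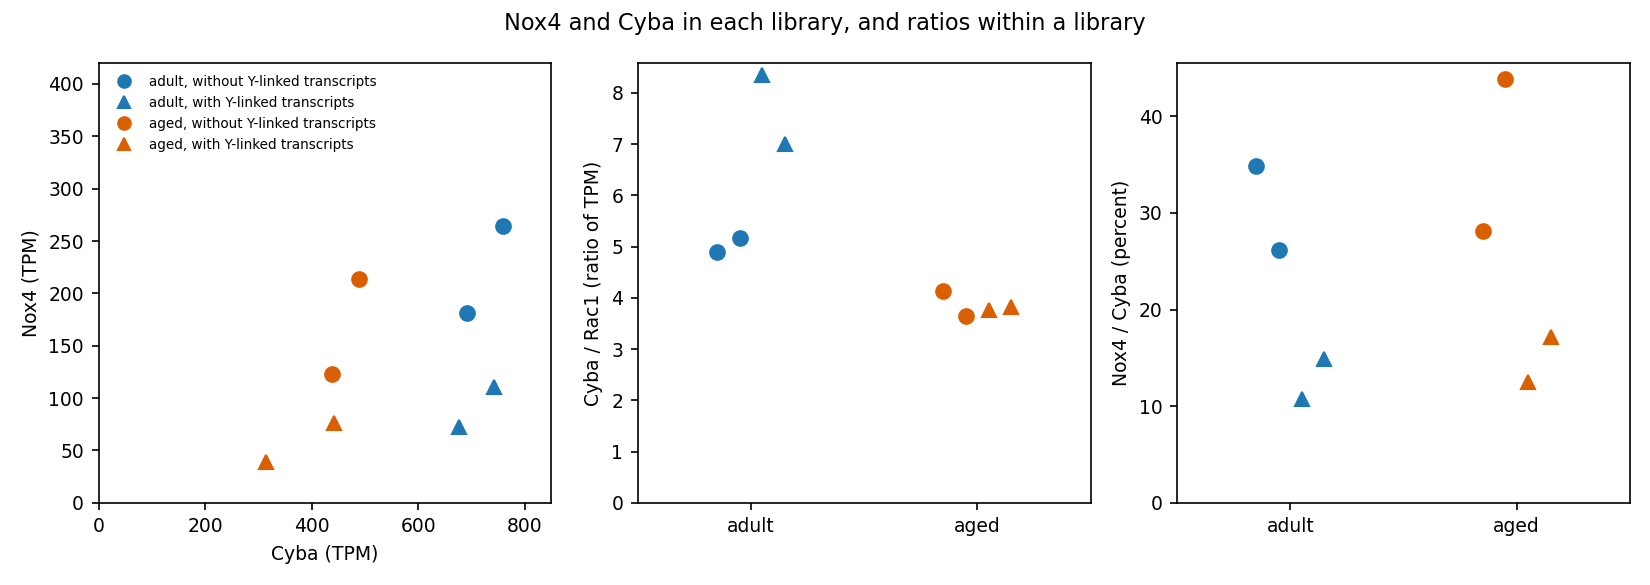
Left, Nox4 against Cyba (TPM) in 8 libraries. Centre and right, the ratio of Cyba to Rac1 and Nox4 as a percentage of Cyba within each library, by age. The Cyba to Rac1 ratio is at most 4.14 in aged and at least 4.90 in adult libraries, while Nox4 is 26.2% to 43.9% of Cyba without and 10.8% to 17.1% with Y-linked transcripts.

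Because Nox4 and Cyba encode the chains of one oxidase, their levels were set side by side within each library. Nox4 was 34.9%, 26.2%, 10.8% and 14.9% of Cyba in adult replicates 1 to 4, and 28.1%, 43.9%, 12.5% and 17.1% in aged replicates 1 to 4. The split libraries did not overlap and the ages did, with means of 21.7% in adult and 25.4% in aged kidneys. Nox4 was 2.70% to 3.91% of the summed proximal tubule markers in libraries without and 1.61% to 1.95% in those with Y-linked transcripts, again without overlap. The proximal tubule sums themselves overlapped between the split libraries, between 3154 and 9789 TPM without and between 2433 and 5788 TPM with. Those of thick ascending limb markers did not, between 923 and 1999 TPM without and between 242 and 501 TPM with. Principal cell markers, between 161 and 311 TPM without and between 66.8 and 147 TPM with, and macrophage markers, between 184 and 342 TPM without and between 75.0 and 153 TPM with, did not overlap either. The part of these cells in the Nox4 difference was not tested.

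The patterns most like that of Nox4 were those of Cyp2d26 (a cytochrome P450, r = 0.998), Cotl1 (an actin-binding coactosin-like protein, 0.997), Rnf130 (a RING-type ubiquitin ligase, 0.996), Eif2b2 (a subunit of a translation initiation factor, 0.995) and Gabarapl1 (an autophagy protein, 0.994), over the same 8 libraries and 7389 genes. Their log2 fold changes with against without Y-linked transcripts were −2.50, −1.76, −0.47, −0.80 and −1.24. Among the subunits, Nox4 was most like Rac1 (r = 0.894) and Ncf1 (0.886), and its r with Cyba was 0.609. All these r values are for TPM as deposited and share the scaling of the libraries. With size factors, Nox4 ranged from 57.3 to 178 and Rac1 only from 102 to 122. Aged replicate 3 then had the lowest Nox4 and the highest Rac1, so the likeness of these genes depends on the scaling.

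Rac1, the RAC protein present in nearly all cells and a cofactor of NOX2, showed no difference between the ages beyond its spread. Adult replicates 1 to 4 had 155, 134, 81.1 and 106 TPM. Aged replicates 1 to 4 had 106, 134, 83.4 and 116 TPM, so the groups overlapped almost fully. The log2 fold change was −0.09 (SE 0.26, limma adjusted p = 1.00), and the sign was positive under the other scalings: 0.01 (size factors), 0.18 (quantile normalization) and 0.19 (mitochondrial genes removed). With against without Y-linked transcripts it was −0.45 (SE 0.20, adjusted p = 0.124), close to the median of all genes there, and 0.12 with size factors.

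**Figure D3:**
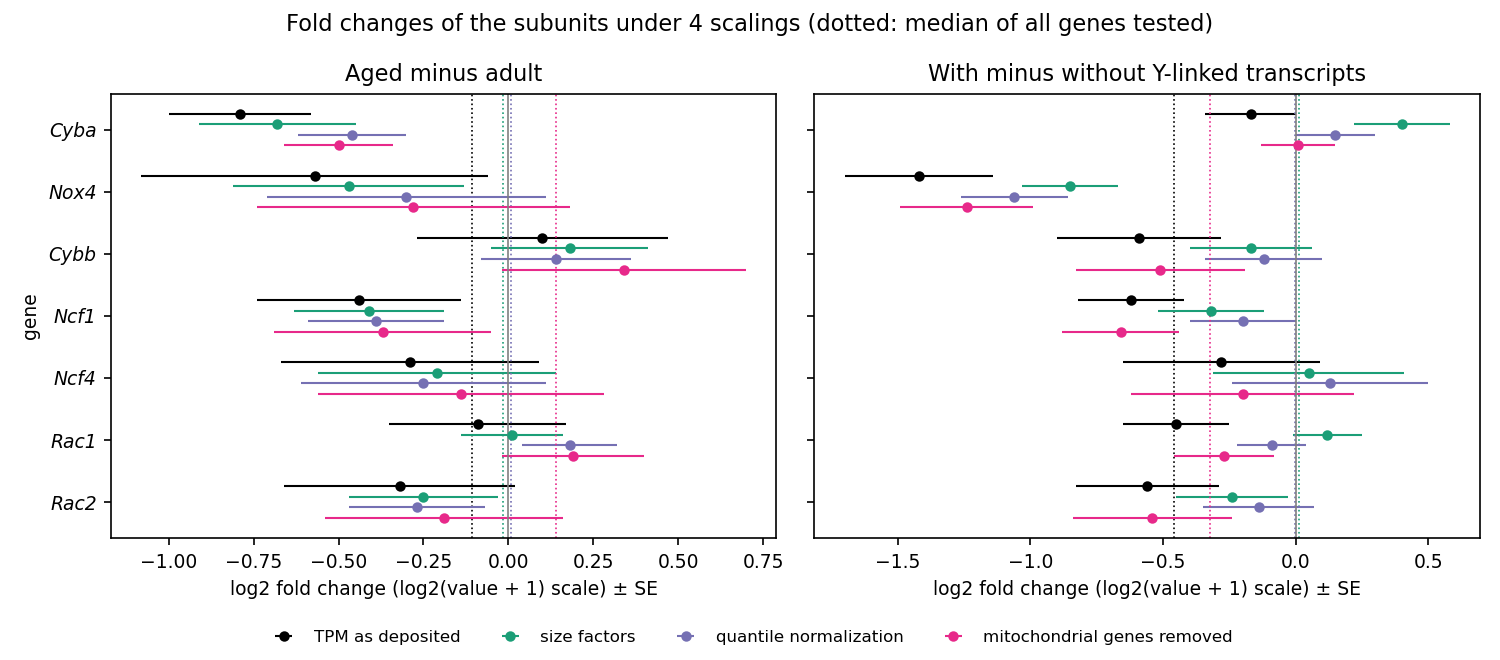
Log2 fold changes of the 7 subunits with SE (horizontal bars), aged minus adult on the left and with minus without Y-linked transcripts on the right, for TPM as deposited and 3 other scalings. Dotted lines mark the median of all genes tested. Cyba is negative for age under all 4 scalings (−0.79 to −0.46), and Nox4 is negative for the Y-linked split under all 4 (−1.42 to −0.85).

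Cybb, which encodes the catalytic NOX2 chain gp91phox of phagocytes and B cells, was sparse. Adult replicates 1 to 4 had 6.26, 2.33, 2.04 and 2.59 TPM, and aged replicates 1 to 4 had 4.22, 4.48, 1.41 and 4.10 TPM. Adult replicate 1 was the highest of all libraries, 3 aged libraries lay above the other 3 adult ones, and the groups overlapped. The log2 fold change was 0.10 (SE 0.37, limma adjusted p = 1.00). It was 0.39 without adult replicate 1, 0.34 with mitochondrial genes removed and −0.03 without adult replicate 3.

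Ncf1, the p47phox organizer that carries the cytosolic complex to the membrane when phosphorylated, had 2.00, 2.04, 1.32 and 0.897 TPM in adult replicates 1 to 4 and 1.19, 1.60, 0.337 and 0.580 TPM in aged replicates 1 to 4. The libraries without Y-linked transcripts were the higher ones within each age. The means were 1.57 ± 0.554 and 0.926 ± 0.574 TPM (SD, n = 4 each), with a log2 fold change of −0.44 (SE 0.30, limma adjusted p = 1.00) for age. For the Y-linked split it was −0.62 (SE 0.20, adjusted p = 0.0660) and did not pass.

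Ncf4, the p40phox partner that binds a phosphoinositide of the phagosome, had 3.12, 1.66, 1.47 and 3.06 TPM in adult replicates 1 to 4 and 4.42, 0.843, 0.775 and 1.81 TPM in aged replicates 1 to 4. Aged replicate 1 was the highest and aged replicates 2 and 3 the lowest of all libraries. The log2 fold change was −0.29 (SE 0.38, adjusted p = 1.00 by limma), and −0.63 without aged replicate 1 and −0.09 without aged replicate 3.

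Rac2, the RAC protein of blood cells, had 3.76, 1.18, 0.815 and 1.05 TPM in adult replicates 1 to 4 and 1.09, 1.48, 0.654 and 0.845 TPM in aged replicates 1 to 4. Adult replicate 1 stood apart from the other 7 libraries, which lay at 1.48 TPM or below. The log2 fold change for age was −0.32 (SE 0.34, adjusted p = 1.00 by limma), and −0.01 without adult replicate 1. All libraries with Y-linked transcripts were below all those without (log2 fold change −0.56, SE 0.27, adjusted p = 0.148).

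The sparse subunits were set beside the leukocyte markers measured in the same libraries. Cybb, Ncf1, Ncf4 and Rac2 summed to 15.1, 7.21, 5.65 and 7.60 TPM in adult replicates 1 to 4 and to 10.9, 8.40, 3.18 and 7.33 TPM in aged replicates 1 to 4. The macrophage complement genes C1qa, C1qb and C1qc summed to 96.0, 64.4, 31.1 and 58.8 TPM and to 88.3, 77.4, 16.5 and 44.0 TPM in the same order. Adult replicate 1 was the highest and aged replicate 3 the lowest in both sums, and also in the summed proximal tubule markers (9789 and 2433 TPM). Over the whole list of 13 macrophage markers, 10 of which averaged at least 1 TPM, the sum was 142 to 261 TPM in adult and 75.0 to 342 TPM in aged libraries. The subunits were 3.24% to 5.80% of that sum in adult and 3.19% to 6.48% in aged libraries, which overlapped.

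The 8 pan-leukocyte markers summed to 59.7 to 95.4 TPM without and 23.4 to 40.1 TPM with Y-linked transcripts, with no overlap, and Rac2, and Ncf1 within each age, were lower on the same side. The part of leukocyte content in these differences was not tested. Neutrophil markers summed to 10.1 to 46.2 TPM in adult and 12.2 to 21.3 TPM in aged libraries, mostly S100a8 and S100a9. Only these 2 of 11 averaged at least 1 TPM, and Ly6g and Elane were listed at 0 in at least 7 libraries. Both tested genes were positive for the Y-linked split (median 0.33), while all 7 tested pan-leukocyte markers were negative. B and plasma cell markers summed to 46.8 to 224 TPM in adult and 170 to 574 TPM in aged libraries, mostly Igkc, while Ms4a1 stayed under 1 TPM. T cell markers summed to 4.33 to 13.7 TPM and 3.89 to 7.75 TPM.

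**Figure D4:**
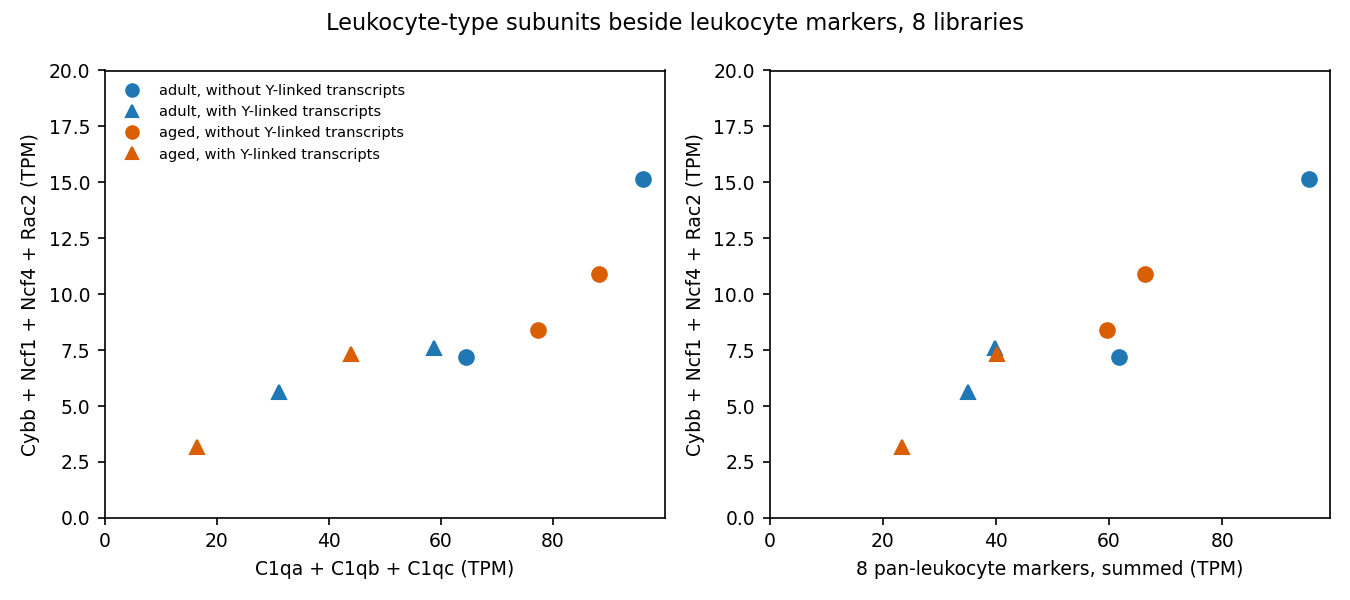
Summed TPM of Cybb, Ncf1, Ncf4 and Rac2 (vertical axes) against the summed C1q genes (left) and 8 pan-leukocyte markers (right) in 8 libraries. The libraries with Y-linked transcripts lie at 3.18 to 7.60 TPM on the vertical axis and the others at 7.21 to 15.1 TPM.

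Taking the 7 subunits for age, 6 had negative and 1 (Cybb) a positive log2 fold change, with a median of −0.32, where 65.0% of all genes were negative. For the Y-linked split all 7 were negative as deposited, with a median of −0.56, where 89.2% of all genes were negative. That of Cyba, −0.17, became 0.40 (size factors), 0.15 (quantile normalization) and 0.01 (mitochondrial genes removed). Ncf4 changed sign with size factors and quantile normalization and Rac1 with size factors. No interaction of age with the split passed for a subunit (limma adjusted p = 1.00 for each), and 0.0339% of all genes passed it.

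Other components of the oxidases were mostly sparse or absent. Of 16 listed, 8 were tested, 5 with negative and 3 with positive log2 fold changes for age (median −0.07), and none passed. Poldip2, a NOX4-interacting protein, had the smallest p, with an adult mean of 66.4 ± 13.6 TPM and an aged mean of 50.8 ± 12.9 TPM (SD, n = 4 each) and a log2 fold change of −0.39 (SE 0.26). Sh3pxd2a, an organizer-like scaffold, had a log2 fold change of 0.30 (SE 0.28) and Hvcn1, the proton channel that offsets the charge moved by NOX2, one of 0.20 (SE 0.31). Noxo1, the organizer of NOX1, averaged 1.84 TPM without and 0.446 TPM with Y-linked transcripts and passed for that split (log2 fold change −0.96, SE 0.22, limma adjusted p = 0.0282), but not with size factors (−0.69), with quantile normalization (−0.56) or without any one of adult replicates 1, 3 and 4 and aged replicate 3 (highest adjusted p = 0.0881). For age its log2 fold change was −0.39 (SE 0.38). The dual oxidase Duox2 and its maturation factor Duoxa2 were listed at 0 in all libraries.

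Of 17 upstream regulators, 11 were tested for age, 7 negative and 4 positive (median −0.09), and none passed. Of all genes, 65% were negative. With size factors 6 of 11 were negative, with quantile normalization 5 of 11, and with mitochondrial genes removed 1 of 12 tested (median 0.10). The receptor Tlr4 had a log2 fold change of 0.31 (SE 0.31), the RAC-sequestering Arhgdib one of −0.26 (SE 0.35) and its relative Arhgdia one of −0.19 (SE 0.43), and the kinase Prkca one of −0.24 (SE 0.34). Both Arhgdib and Arhgdia were positive with mitochondrial genes removed (0.02 and 0.10). Vav3, an exchange factor that loads RAC with GTP, was the 1 of 11 to pass for the Y-linked split, where 12.4% of all genes did. It had 9.22 to 14.3 TPM without and 2.84 to 3.94 TPM with Y-linked transcripts (log2 fold change −1.62, SE 0.20, limma adjusted p = 0.00146).

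Enzymes that supply NADPH had a median of −0.30 for age, with 9 of 11 tested genes negative and none passing. Pgls of the pentose phosphate pathway had 37.3 ± 15.3 and 23.7 ± 9.06 TPM as adult and aged means (SD, n = 4 each) with a log2 fold change of −0.64 (SE 0.38), and transketolase Tkt had one of −0.81 (SE 0.54). The isocitrate dehydrogenases Idh1 and Idh2 had log2 fold changes of −0.43 each (SE 0.39 and 0.33). For the Y-linked split, where 12.4% of all genes passed and 1331 of 1464 calls were lower, 2 of 11 passed, both lower with Y-linked transcripts: Pgls (−0.90, SE 0.24, limma adjusted p = 0.0416) and the malic enzyme Me2 (−0.89, SE 0.25, adjusted p = 0.0457). The call was lost in 11 of 17 alternatives for Pgls and 11 of 16 for Me2, among them all 3 other scalings and no filter. Leaving out any library but aged replicate 4 ended that of Pgls, and any but aged replicates 1 and 4 that of Me2 (highest adjusted p = 0.128 and 0.130 by limma). With size factors or quantile normalization 1 of 11 passed, neither Pgls nor Me2, and with mitochondrial genes removed 0 did. The malic enzyme Me1 went the other way, averaging 114 TPM without and 173 TPM with Y-linked transcripts, with overlap.

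Of 9 other enzymes that make superoxide or peroxide, 7 were tested, 4 negative and 3 positive for age (median −0.15), and none passed. D-amino acid oxidase Dao had a log2 fold change of −0.50 (SE 0.33), xanthine dehydrogenase Xdh one of 0.45 (SE 0.50) and hydroxyacid oxidase Hao2 one of −0.54 (SE 0.63). For the Y-linked split 3 of 7 passed, all lower, the direction of 1331 of the 1464 calls over all genes (12.4% of genes). Hao2 had 527 to 845 TPM without and 111 to 241 TPM with Y-linked transcripts (log2 fold change −1.98, SE 0.21, limma adjusted p = 0.000579). The amine oxidases Maoa and Maob had log2 fold changes of −1.30 (SE 0.22, adjusted p = 0.00823) and −1.09 (SE 0.30, adjusted p = 0.0463), and the Maob call was lost in 10 of 16 alternatives: no filter, all 3 other scalings, and without any one library but aged replicates 1 and 4 (highest adjusted p = 0.142).

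**Figure D5:**
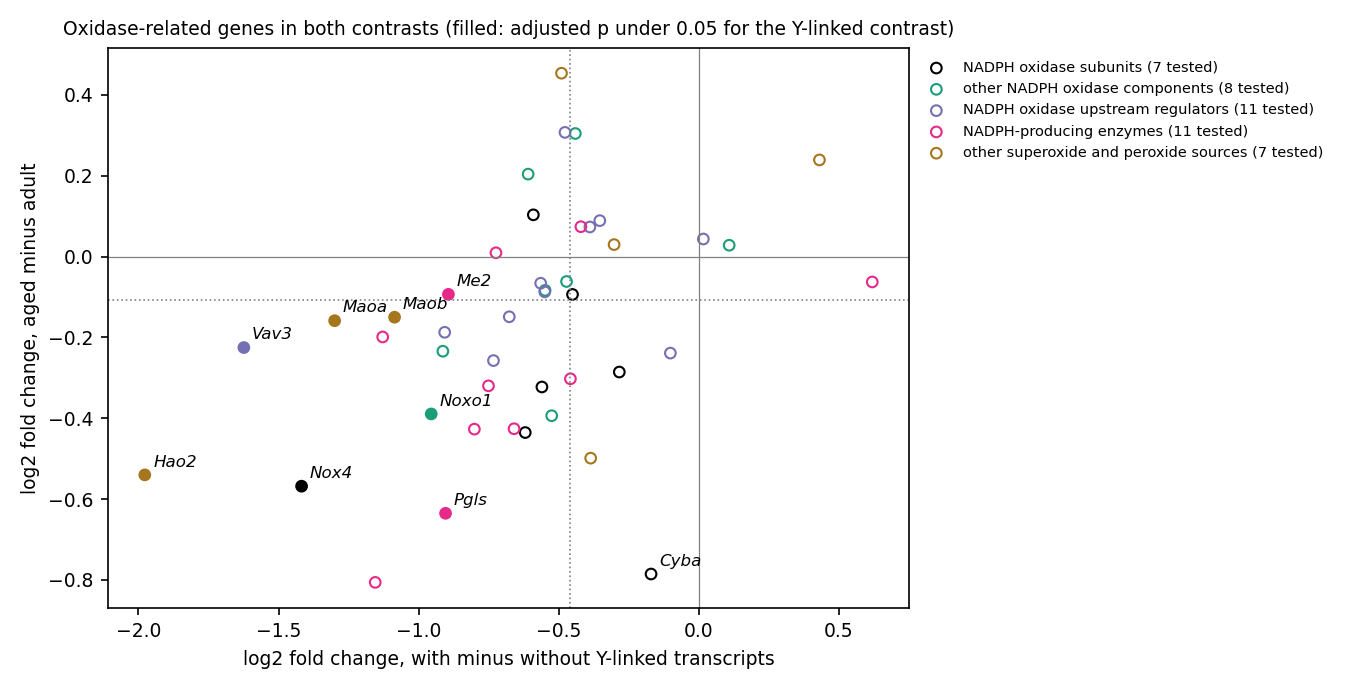
Log2 fold change for age (vertical) against that for the Y-linked split (horizontal) for the tested genes of 5 lists. Filled points passed for the Y-linked split, and dotted lines mark the medians of all genes (−0.11 and −0.46). Cyba lies lowest among the subunits for age and near 0 for the split, and Nox4 lies farthest to the left among the subunits.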

How the data were processed

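The members and gene lists were chosen with earlier results of these data known. RNA came from kidneys of 8 mice, 4 adult and 4 aged. Per the labels' protocols, polyadenylated RNA was pulled down for stranded libraries. The deposited values are TPM, per the name of the authors' file. Build GRCm38 and the tools kallisto and DESeq2 stand in the submitters' processing notes, without versions or roles; the annotation is not given in the sources used here. Of 30153 rows, 29732 (98.6%) matched a symbol, and rows sharing a symbol were summed. TPM keeps no depth, so no counting interval was computed.

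Aged and adult libraries were compared by limma 3.58.1 (R 4.3.3) on log2(TPM + 1) values with the variance trended on intensity, keeping genes that averaged 1 TPM or more, with Benjamini-Hochberg adjustment over all of them and a threshold of 0.05. Libraries were also split at 10 TPM of summed Y-linked transcripts, with age as a covariate, and an interaction was fitted. Named genes were the 7 subunits, list members past the threshold, the 4 per list with the smallest p for age and the 2 for the split, and the 5 nearest patterns of Cyba and Nox4; 1 gene that the rule names is not reported here. Alternatives were pseudocounts of 0.1 and 5, no filter, a minimum mean of 5 TPM, 3 other scalings (quantile normalization, size factors, mitochondrial genes removed), no trend, robust estimation, the replicate number as a block, the split as a covariate and each library left out. The fits were tested on simulated data with independent noise. The simulated age runs held no effect of the Y-linked split, so they do not show how the age fit performs with that split present.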

Additional observations from a re-analysis of the deposited data

Results flagged for a closer look

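Of 14 sets of 4 libraries (7 subunits in 2 age groups), 3 held a library far from the other 3, where chance gives about 1 in 20 for independent sets. These sets share their libraries and are not independent, and the rule was run on TPM as deposited only. Cybb had 6.26 TPM in adult replicate 1, against 2.59 TPM or less in the other adult libraries. Cybb had 1.41 TPM in aged replicate 3, against 4.10 TPM or more in the other aged libraries. Rac2 had 3.76 TPM in adult replicate 1, against 1.18 TPM or less in the other adult libraries. Adult replicate 1 also had the highest and aged replicate 3 the lowest sums of pan-leukocyte markers, 95.4 and 23.4 TPM. The same held for proximal tubule markers (9789 and 2433 TPM) and thick ascending limb markers (1999 and 242 TPM). It also held for the number of genes at 1 TPM or more (12293 and 10663), so these extremes were not particular to leukocyte genes. The macrophage sum was highest in aged replicate 1 (342 TPM). The part of leukocyte content in the flagged values was not tested.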

How the results depend on the processing

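For age, Cyba, Nox4, Ncf1, Ncf4 and Rac2 kept their negative sign under every alternative run for them, and no subunit passed under any. Cyba ranged from −0.86 to −0.46. Rac1 was positive at 0.01 (size factors), 0.18 (quantile normalization) and 0.19 (mitochondrial genes removed), and ranged from −0.26 to 0.05 with single libraries left out, Cybb from −0.03 to 0.39. With single libraries left out, 0 to 2 genes passed for age, 400 to 2048 for the Y-linked split and 2 to 16 for the interaction, against 0, 1464 and 4 with all. The split gave 762 genes with no filter, 637 (size factors), 636 (quantile normalization) and 718 (mitochondrial genes removed); of the 1464, 133 were higher and 1331 lower with Y-linked transcripts, and with size factors 349 were higher and 288 lower. The interaction gave 0 with no filter and 2 with size factors. The cause of these changes was not tested.

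For the split, Cyba was 0.40 (size factors), 0.15 (quantile normalization) and 0.01 (mitochondrial genes removed), Ncf4 0.05 (size factors) and 0.13 (quantile normalization), and Rac1 0.12 and Poldip2 0.04 with size factors; Ncf4 ranged from −0.55 to 0.07 with single libraries left out. For age, Arhgdia was 0.05 (quantile normalization) and 0.10 (mitochondrial genes removed), Arhgdib 0.02 (mitochondrial genes removed), and with single libraries left out Arhgdia ranged from −0.53 to 0.15 and Arhgdib from −0.47 to 0.03. The interaction of Cybb was 0.02 (pseudocount 5) and 0.09 (mitochondrial genes removed); with single libraries left out it ranged from −0.60 to 0.52, that of Nox4 from −0.74 to 0.19, Ncf4 from −1.21 to 0.34 and Rac2 from −0.20 to 0.92.

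Libraries with the same replicate number correlated in their deviations at 0.038, 0.181, 0.486 and 0.415. Adult and aged libraries with different numbers correlated at −0.527 to 0.572, a range that holds all of these, so the numbers were not taken as pairs. With the replicate block 0 genes passed for age, Cyba kept −0.79 (limma adjusted p = 0.558) and Nox4 −0.57 (0.641). With mean TPM at or above 5, Cybb, Ncf1, Ncf4 and Rac2 were not tested. Unknown depth limits above all the subunits near 1 TPM.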
